A study of Drosophila melanogaster with 2 samples.

Results

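A set of 10 genes of the fly dorsal ectoderm, centred on ush, was examined in a profile of where the tagged zinc-finger protein disco-r was enriched on embryonic chromatin. They are ush, dpp, sog, tld, zen, Doc1, tup, pnr, srp and Ance, 10 of the 13986 annotated protein-coding genes, of which 11296 had a candidate region. The genes are given by name and were selected on the number, signal, rank, location and spacing of deposited peaks at least in part, since these were already known. Those values are therefore descriptions and carry no test. A region counted for a gene when its summit, the base with the highest enrichment, lay in the gene body or within 2 kb on either side.

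The assay was ChIP-seq, in which chromatin is fragmented, precipitated with an antibody and sequenced. Whole Drosophila melanogaster embryos of both sexes, aged 0 to 24 h, came from 1 transgenic line that makes a disco-r-eGFP fusion, and the antibody was against GFP. One label names disco, the paralog of disco-r, as the fused gene. Both samples, biological replicates 2 and 3, belong to this single group, so there is no contrast between conditions, and all tissues and stages of the first 24 h contribute to each value. The deposited dm6 lists hold 30000 candidates for each replicate, 29347 for the pooled reads, and 2334 regions that passed a threshold on the irreproducible discovery rate (IDR), which scores the reproducibility of ranks between replicates. These 2334 are the strongest of the pooled list, with a signal of at least 72.5, so "passed IDR" below means a pooled signal above that value. Signal is the authors' score for a region, has no stated scale, and is compared only within 1 list. The number of reads is unknown.

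In the early embryo the BMP-type ligand Dpp patterns the dorsal side: the secreted protein Sog binds it and carries it dorsally, and the protease Tld cleaves Sog and frees the ligand. High Dpp activity turns on zen, Doc1, tup, ush and Ance in the future amnioserosa, the extraembryonic tissue that covers the dorsal side and drives dorsal closure, and pnr in the wider dorsal ectoderm. The protein Ush is a multi-zinc-finger cofactor of the FOG family that binds the GATA factors Pnr, in the ectoderm and heart, and Srp, in blood cells and fat body, and modifies their activity.

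Peaks that passed IDR lay at 5 of the 10 genes, and 8 of the 12 such peaks were at ush. The others were single peaks at Ance, tup, dpp and sog, and pnr, srp, zen, tld and Doc1 had none. Among all 11296 protein-coding genes with a candidate, 27.4% had at least 1 peak in their body or within 2 kb. Nothing is read from the difference between that share and the 5 of 10 found here, because the genes were picked with their peaks in view. Of the 10 genes, 9 had a pooled candidate of any strength, and tld had none. The 12 peaks made up 0.514% of the 2334.

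**Figure D1:**
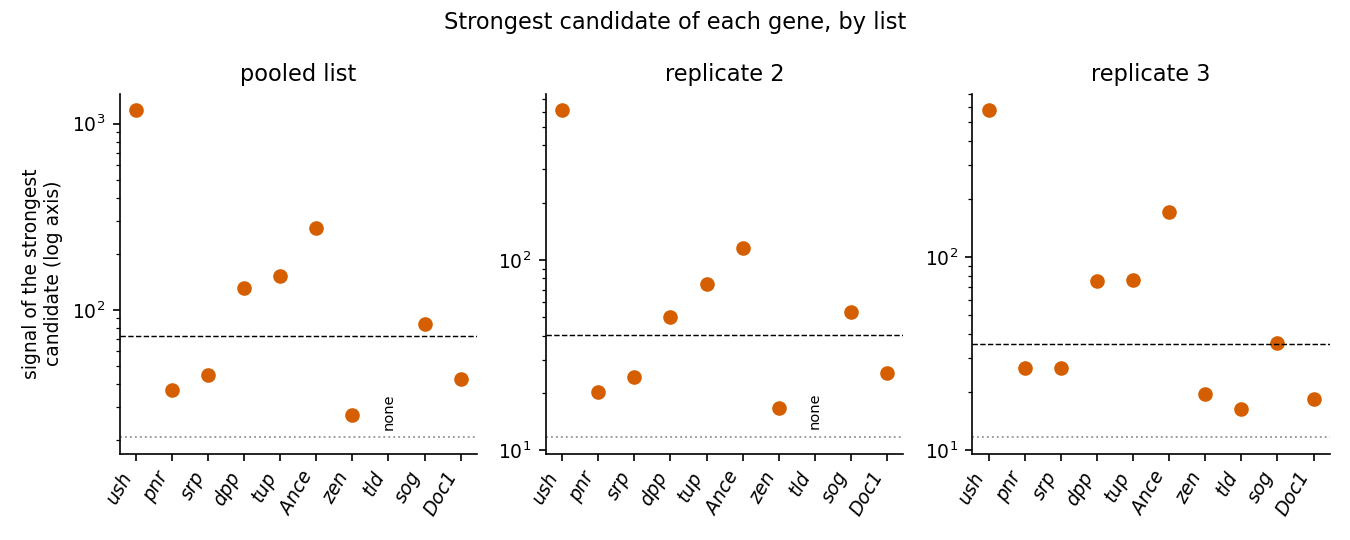
Signal of the strongest candidate of each gene (log axes) in the pooled list, in replicate 2 and in replicate 3. Dashed lines mark the signal at rank 2334 of each list, dotted lines its lowest candidate, and "none" a gene without one. In each list ush stands highest and Ance second, while pnr, srp, zen, tld and Doc1 stay below the dashed line.

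The ush locus held the strongest and the most numerous peaks of the group. The gene (FBgn0003963, 2L, 476220 to 540560, plus strand, 64.3 kb) has 5 annotated transcripts from 4 start sites. In the pooled list its window contained 44 candidates, and the replicates' own lists gave 55 in replicate 2 and 38 in replicate 3. Of the 44, 8 passed IDR (18.2%), against 4 of the 63 candidates of the other 9 genes (6.35%) and 7.95% of all pooled candidates. Among these 9, Ance had a higher share than ush, with 1 of 3 candidates (33.3%). Its short window also held more summits per 10 kb, 1.32 against 1.17 at ush. The 8 summits spread over 42828 bp, 5 of them nearer to the 5′ end of the gene body than to its 3′ end. Gaps between neighbouring summits at ush ran from 524 to 19879 bp with a median of 4395 bp, against a median of 21830 bp between neighbouring IDR summits on the same chromosome over the whole list. Candidates of any strength were also closer together at ush, with a median gap of 955 bp, against 2059 bp over all pooled candidates. Both differences follow largely from the number of summits in the ush window, and the whole-list gaps include those between genes. The spacing therefore adds nothing to the counts.

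The strongest peak at ush was second of all 2334 and lay in the first intron, 4868 bp downstream of the first start site (2L, 480905 to 481267, summit 481088). Its signal was 1187 in the pooled list, 615 in replicate 2, where it ranked 1, and 579 in replicate 3, where it ranked 2. The peaks next to it in the pooled list were promoter peaks, 99 bp upstream of CG14100 (signal 1206, rank 1) and 188 bp upstream of px (888, rank 3). The replicates put the summit 1 bp upstream and 4 bp downstream of the pooled one. This intron also contains a whole other gene: cbt (2L, 476446 to 479688, minus strand), which encodes a zinc-finger transcription factor required for dorsal closure. The start site of cbt is the nearest protein-coding start to the peak, which lies 1400 bp upstream of it, so by position the site can be attributed to either gene. A second peak 997 bp away (479952 to 480163, summit 480091) lay 403 bp upstream of the cbt start. Its pooled signal was 321 (rank 100), with 146 in replicate 2 (rank 118) and 182 in replicate 3 (rank 78). Only these 2 of the 8 summits were also within 2 kb of cbt, and the strongest of the remaining 6 had a pooled signal of 189 (rank 331). Without those 2, the top of ush therefore falls between Ance, with 276, and tup, with 152.

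The stretches around these summits are shown because they carry the strongest signal of the group and the peaks with a long GA-repeat. Each runs 100 bases to either side of the pooled summit on the plus strand of dm6 and comes from the RefSeq Release 6 sequence. Capitals mark words that were searched on both strands, listed further on; CTCTC and TTATCT are GAGAG and AGATAA read on the other strand.
ush, strongest peak, chr2L:480988-481188: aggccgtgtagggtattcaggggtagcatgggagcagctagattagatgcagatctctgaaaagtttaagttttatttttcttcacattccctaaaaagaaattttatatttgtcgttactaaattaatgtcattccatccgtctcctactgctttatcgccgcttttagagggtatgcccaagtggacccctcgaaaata
ush, peak upstream of cbt, chr2L:479991-480191: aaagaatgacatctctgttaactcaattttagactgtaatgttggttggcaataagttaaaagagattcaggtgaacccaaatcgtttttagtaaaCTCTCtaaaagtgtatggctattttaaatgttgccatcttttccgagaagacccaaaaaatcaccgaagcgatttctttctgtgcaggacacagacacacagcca
ush, peak at the second start site, chr2L:490690-490890: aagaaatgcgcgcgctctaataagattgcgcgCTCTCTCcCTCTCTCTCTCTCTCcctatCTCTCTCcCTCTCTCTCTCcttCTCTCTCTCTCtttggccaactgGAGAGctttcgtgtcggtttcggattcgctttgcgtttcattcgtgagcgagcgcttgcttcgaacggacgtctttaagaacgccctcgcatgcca
ush, intron peak 34449 bp into the gene, chr2L:510569-510769: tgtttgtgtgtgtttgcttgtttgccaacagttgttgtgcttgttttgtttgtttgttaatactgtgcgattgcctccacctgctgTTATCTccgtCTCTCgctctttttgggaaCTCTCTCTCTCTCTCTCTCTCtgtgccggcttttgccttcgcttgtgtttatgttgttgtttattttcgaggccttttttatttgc
In the strongest peak no searched word occurred. The peak at the second start site held 19 overlapping copies of GAGAG and the intron peak 10, visible as long blocks of alternating C and T.

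The remaining 6 ush peaks had pooled ranks between 331 and 2139 of 2334, and some lay far from the gene's internal start sites. The third strongest (485671 to 486070, pooled signal 189) lay 4964 bp upstream of the second start site. It ranked 162 in replicate 2, with a signal of 129, and 773 in replicate 3, with 64.8. Next in strength was an intron peak (520630 to 521029, pooled signal 149.7) 2636 bp upstream of the third start site, at rank 659 in replicate 2 and 608 in replicate 3. The replicates thus placed the first of these far apart and the second close together. Deep in the long intron, 12797 bp upstream of the third start site, lay a peak of pooled signal 121 (510469 to 510868). It measured 65.4 in replicate 2 and 49.6 in replicate 3.

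A single peak among the 12 lay within 500 bp of a start site of its own gene. Its summit (490590 to 490989, pooled signal 109.9, rank 1057) was 45 bp upstream of the second ush start site. That start, at 490835, is also the annotated start of the non-coding gene lncRNA:CR46258, so the 2 transcripts cannot be told apart by position. A weaker neighbour (490066 to 490465, pooled signal 76.0, rank 2139) lay 524 bp further upstream in a 5′ UTR exon of ush. The last peak (522719 to 523118, pooled signal 80.6, rank 1910) lay 547 bp upstream of the third start site. These 2 weakest peaks ranked 4794 and 3401 in replicate 2, outside its strongest 2334, and 1506 and 1708 in replicate 3. Around the first ush start site no region passed: the nearest candidate was 1148 bp downstream, with a signal of 46.7.

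**Figure D2:**
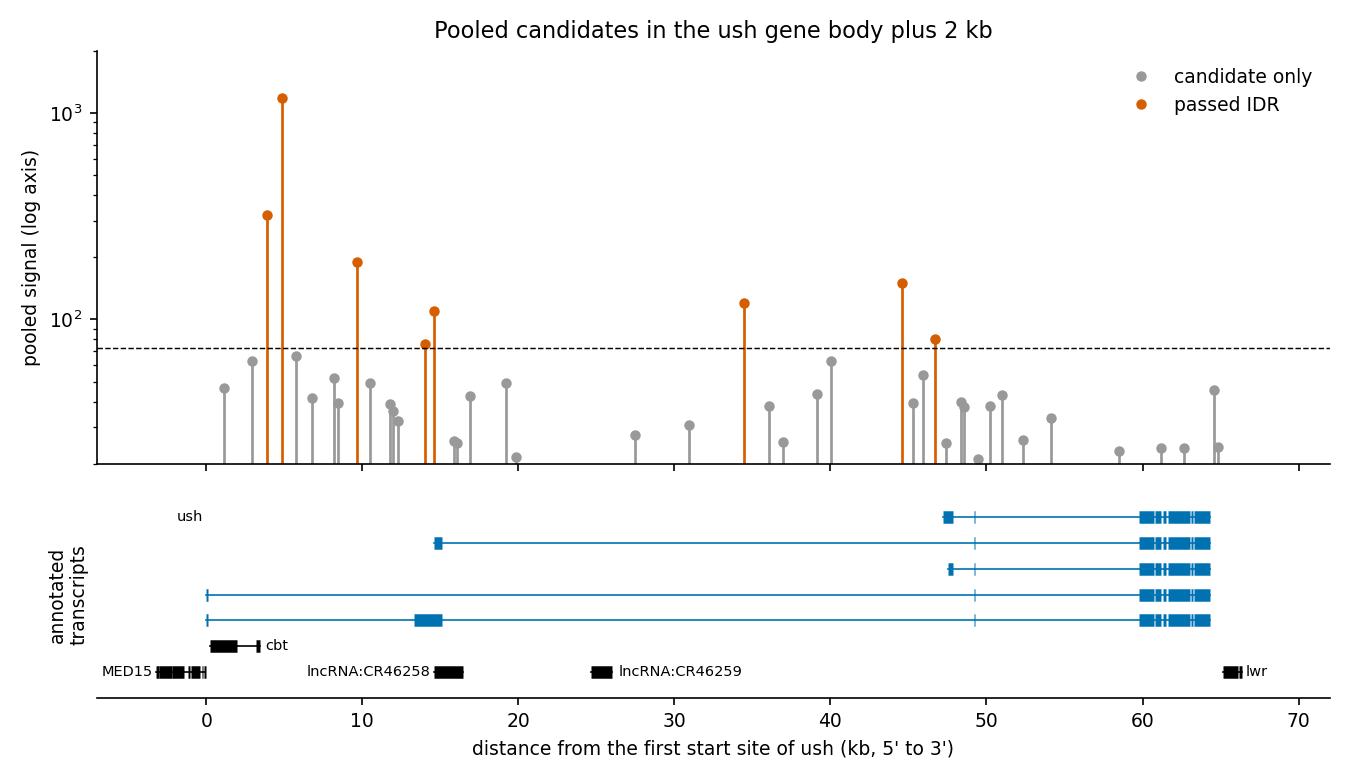
Pooled signal (log axis) of the 44 candidates at ush against distance in kb from its first start site. Below, the annotated transcripts of ush are in blue, and a single transcript of each other gene is in black. Orange marks the 8 regions above the dashed IDR threshold of 72.5 and grey the others; the 2 highest stand just upstream of cbt, which is read leftwards.

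Just under the threshold, ush had 3 more candidates with a signal above 60. They lay 856 bp downstream of the strongest peak (66.4, rank 2754), in the intron (62.9, rank 3028) and in a 5′ UTR of cbt (62.6, rank 3060). Taking the strongest 2334 candidates of each replicate alone, 8 regions at ush entered in replicate 2 and 10 in replicate 3. In both cases they included a region in the 5′ UTR of cbt, with a signal of 44.2 in replicate 2 and 36.5 in replicate 3. Just outside the window, 3769 bp upstream of ush, stood a strong promoter peak of CG4297 (signal 263, rank 149). At the 3′ end, where the gene adjoins lwr, a SUMO-conjugating enzyme gene, no candidate passed.

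Genes with as many IDR summits as ush were rare, and most lie on X. Over all 11296 genes with a candidate, 6 had 8 or more summits in their window: CG1677 and Raf with 10 each, Hr4 with 9, and ush, CHES-1-like and kirre with 8. By the likeness measured, the number of summits per window, rdx followed with 7. Per 10 kb of window, ush held 1.17 summits, fewer than CHES-1-like with 2.58, Raf with 1.91 and Hr4 with 1.29. It held more than rdx with 1.01, CG1677 with 0.777 and kirre with 0.201. In none of the other 5 genes with 8 or more summits did the strongest peak reach that of ush: their highest pooled signals ran from 188 at kirre to 378 at Raf. That ush peak is the one upstream of cbt, however. Without the 2 peaks near cbt the highest at ush was 189, close to kirre and below CHES-1-like, Hr4, CG1677 and Raf. By nearest start site 6 of the 8 summits were left at ush, and the same count is not given here for the other 5 genes. Among 342 other genes with windows of 45.6 to 102.5 kb, around the 68.3 kb of ush, the median was 0 summits, 176 had none and 2 had 8 or more.

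**Figure D3:**
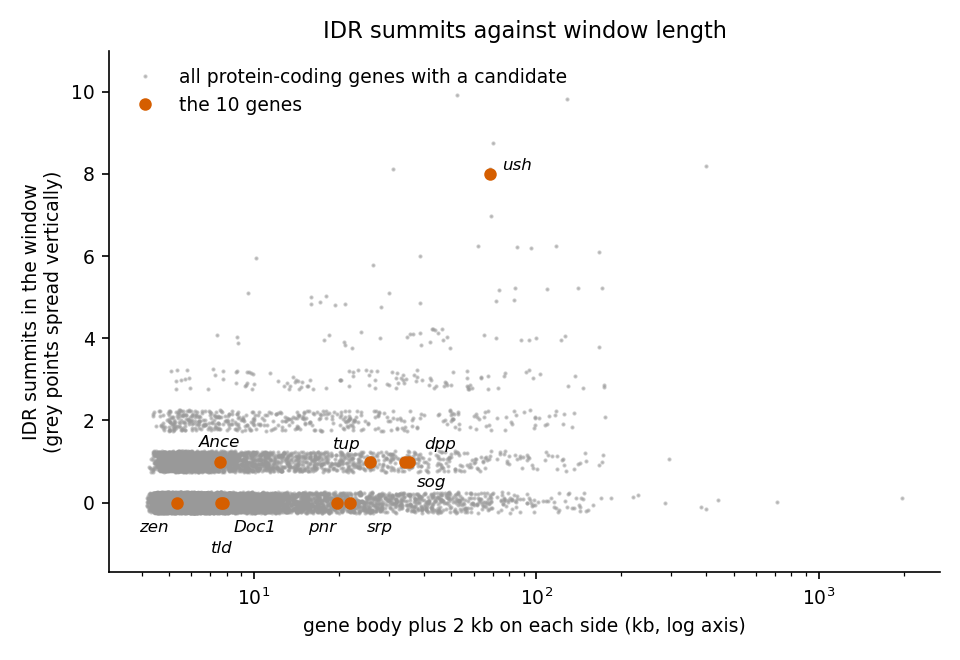
Number of IDR summits in the gene body plus 2 kb against the length of that window in kb (log axis), for 11296 protein-coding genes with a candidate (grey, spread vertically for legibility) and for the 10 genes (orange). The gene ush stands at 8 summits in 68.3 kb, the other 9 at 0 or 1.

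The secreted members of the Dpp system had 1 intron peak each, or none. For dpp itself (FBgn0000490, 2L, 2428372 to 2459823, plus strand), which encodes the BMP-type ligand, 17 pooled candidates were listed and 1 passed. It lay in the first intron of the transcript that begins at the first start site, 5273 bp downstream of the first start site (2433445 to 2433844). Its signal was 130.3 in the pooled list (rank 772), 49.97 in replicate 2 (rank 1462) and 75.1 in replicate 3 (rank 557). Both replicates placed it within their strongest 2334, with summits 28 bp and 1 bp from the pooled one. Only 1 of the 4 dpp transcripts spans this site. Within 500 bp of a dpp start site candidates were weak, with signals of 33.9 at the first start and 33.6 at the third. The next strongest candidate at dpp, 1751 bp upstream of the gene, had a signal of 53.8.

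The Dpp antagonist gene sog (FBgn0003463, X, 15603283 to 15633434, minus strand) had 13 candidates and the weakest peak outside ush. This peak lay in an intron, 7121 bp downstream of the inner start site (15619219 to 15619618), with a pooled signal of 84.1 (rank 1758). Replicate 2 listed a pair of overlapping candidates there, with signals of 53.3 (rank 1265) and 46.6 (rank 1667), whose summits were 169 bp upstream in the plus-strand sense and 46 bp downstream. In replicate 3 the site had a signal of 31.3 and rank 2975, outside the strongest 2334. Replicate 3 instead placed another sog intron region within that limit (15622913 to 15623288, signal 36.1, rank 2276). That region and the sog start were the candidates nearest below the IDR threshold, with pooled signals of 69.8 (rank 2530) and 67.6 (rank 2674). The start of sog did enter the strongest 2334 of replicate 2 (signal 42.6, rank 2063). The locus of tld (FBgn0003719, 3R, 24749731 to 24753510, plus strand), the protease gene, was the emptiest: no candidate in the pooled list or in replicate 2. Replicate 3 listed 2, with signals of 16.5 at the start of the neighbouring gene asp and 12.9 at the other edge.

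The peaks counted for tup and Ance lay outside both gene bodies, at the starts of neighbouring genes. For tup (FBgn0003896, 2L, 18859507 to 18881261, minus strand), a LIM-homeodomain gene of the amnioserosa and heart, 11 candidates were listed and 1 passed. This peak (18857575 to 18857974) lay beyond the 3′ end of tup, 23486 bp from its start site and 96 bp upstream of a start of CG10602. It is also within 2 kb of mRpL13, a mitochondrial ribosomal protein gene. Its signal was 152 in the pooled list (rank 561), 74.8 in replicate 2 (rank 615) and 76.3 in replicate 3 (rank 533), so the replicates ranked it alike. At the tup start site itself a candidate 92 bp upstream had a pooled signal of 59.6 (rank 3355) and did not pass. By nearest start site tup would instead be given an intergenic peak 9020 bp upstream of it (signal 108, rank 1113), which lies outside the 2 kb limit.

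Ance (FBgn0012037, 2L, 13905645 to 13909212, plus strand) encodes a peptidase of the angiotensin-converting enzyme family made in the amnioserosa. Its window held 3 candidates, and 1 passed (13904382 to 13904781). The pooled signal was 276 (rank 132), with 115.2 in replicate 2 (rank 220) and 172 in replicate 3 (rank 92). It is the strongest peak of the 10 genes that lies away from cbt. The summit lay 1063 bp upstream of Ance but 79 bp inside Smg5, the divergently read neighbour that encodes a factor of nonsense-mediated RNA decay. A neighbouring candidate 200 bp away, upstream of Smg5, had a pooled signal of 49.3 (rank 4786) and entered the strongest 2334 of replicate 3 alone (37.5, rank 2125). The candidate at the Ance start itself had a signal of 24.5, close to the lowest in the list, 20.7. With windows of 1 kb in place of 2 kb neither Ance nor tup had a peak, which left ush, dpp and sog.

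These 4 stretches are the single peaks of the other genes, drawn in the same way, for comparison with those at ush.
Ance, chr2L:13904482-13904682: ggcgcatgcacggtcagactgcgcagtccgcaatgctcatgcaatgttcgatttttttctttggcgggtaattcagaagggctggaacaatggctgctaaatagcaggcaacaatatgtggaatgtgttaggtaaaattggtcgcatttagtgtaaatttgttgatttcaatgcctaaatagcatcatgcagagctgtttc
tup, chr2L:18857675-18857875: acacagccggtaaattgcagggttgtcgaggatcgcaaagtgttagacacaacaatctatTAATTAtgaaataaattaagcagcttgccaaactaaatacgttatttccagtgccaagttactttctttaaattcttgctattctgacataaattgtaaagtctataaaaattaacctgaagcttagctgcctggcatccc
dpp, chr2L:2433545-2433745: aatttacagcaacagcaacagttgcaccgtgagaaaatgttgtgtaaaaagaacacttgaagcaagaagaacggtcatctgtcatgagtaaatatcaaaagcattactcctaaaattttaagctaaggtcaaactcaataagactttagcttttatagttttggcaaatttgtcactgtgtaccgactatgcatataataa
sog, chrX:15619319-15619519: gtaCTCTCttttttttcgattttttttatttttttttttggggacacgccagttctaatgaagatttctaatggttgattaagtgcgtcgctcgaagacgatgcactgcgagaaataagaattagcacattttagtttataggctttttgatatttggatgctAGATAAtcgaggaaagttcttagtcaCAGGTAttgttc
No searched word fell in the Ance and dpp stretches, tup had 1 homeodomain word, and sog had 3 words, those of GATA factors, of the GAGA factor and of Zelda.

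The GATA factor genes pnr and srp, whose products Ush binds, had weak candidates only. At pnr (FBgn0003117, 3R, 16026079 to 16041796, plus strand) the pooled list held 3 candidates in a 19.7 kb window, the strongest with a signal of 36.9 (rank 8549) downstream of the gene near Jhbp4. Inside pnr there was 1 candidate, at a signal of 21.97. None of its 3 start sites had a candidate within 500 bp. For srp (FBgn0003507, 3R, 15986152 to 16004085, plus strand) there were 10 candidates, the strongest at 45.0 (rank 5746), 1654 bp upstream of the gene. The best rank of either gene in a replicate was 4019 for pnr and 4063 for srp, both in replicate 3. The nearest IDR summits outside their windows lay 7786 bp beyond pnr (signal 100.3, at CG5013) and 11736 bp before srp (signal 105, in an intron of Hel89B).

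The homeobox gene zen and the T-box gene Doc1, both regulators of amnioserosa fate, were likewise without peaks. The window of zen (FBgn0004053, 3R, 6752864 to 6754194, minus strand) held 2 candidates with pooled signals of 27.2 (229 bp upstream of its start, rank 16607) and 23.2. Replicate 3 listed the site upstream of the start at 19.6, and replicate 2 listed a different one, inside the coding exon, at 16.7. Just outside, 5475 bp upstream of zen, was a promoter peak of bcd (signal 91.9, rank 1471). Doc1 (FBgn0028789, 3L, 9041375 to 9045042, plus strand) had 4 candidates, the highest at 42.7 (rank 6352) beyond its 3′ end, on the side of Argk2. An intergenic peak 15499 bp upstream of Doc1, towards its paralog Doc2, had a signal of 86.1 (rank 1678).

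**Figure D4:**
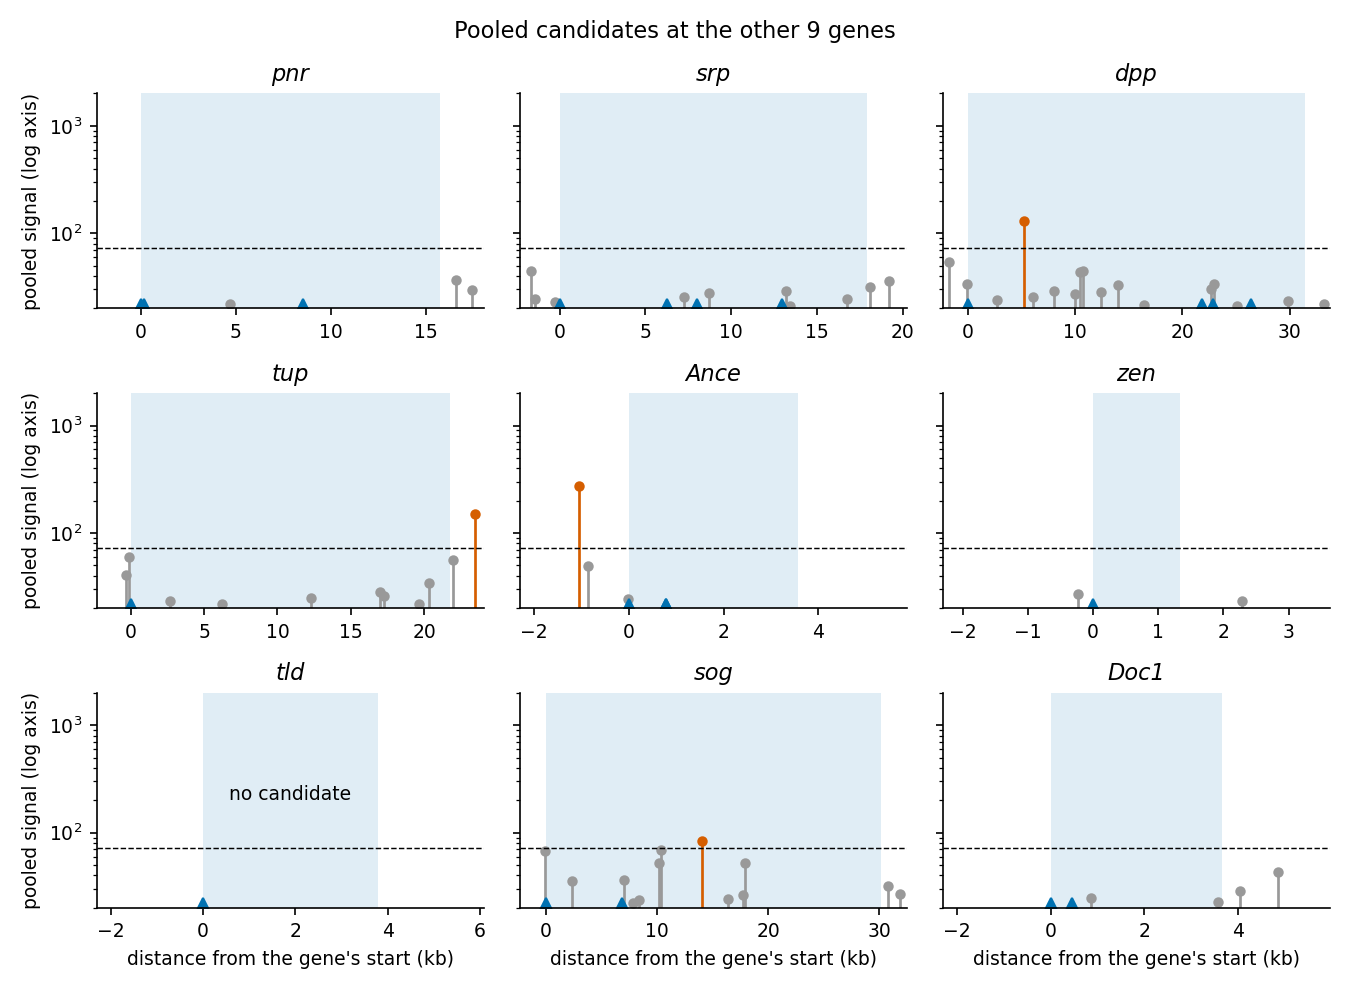
Pooled signal (log axis) of candidates at the other 9 genes against distance in kb from each gene's start, read 5′ to 3′. Shading marks the gene body, triangles its start sites, the dashed line the IDR threshold of 72.5 and orange the regions that passed; the single peaks of tup and Ance fall outside the shading.

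Ranks in the replicates differed by varying amounts among the 12 peaks, with no clear order by strength: the ush peak with a pooled rank of 331 stood at 162 in replicate 2 and 773 in replicate 3, and the one at 2139 stood at 4794 and 1506. Of the 8 peaks at ush, 6 were within the strongest 2334 of replicate 2 and 8 within those of replicate 3. Of the other 4 peaks, 4 were in replicate 2 and 3 in replicate 3. No replicate summit lay more than 169 bp from its pooled summit, where 200 bp was the limit for matching. The median pooled signal was 135 over the 8 ush peaks and 141 over the 4 others. The medians were thus close, while the number of peaks and the highest signal were larger at ush. Above the median of the IDR list, 105, lay 6 of the 8 and 3 of the 4.

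**Figure D5:**
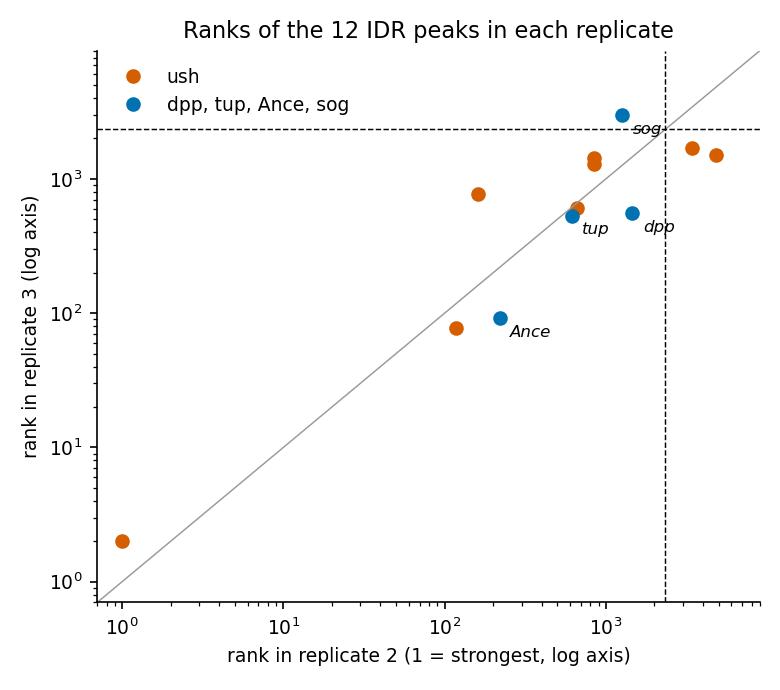
Rank of the 12 peaks in replicate 2 against rank in replicate 3 (log axes, 1 = strongest) for ush (orange) and for dpp, tup, Ance and sog (blue). The diagonal marks equal ranks and the dashed lines rank 2334; the strongest ush peak stands at 1 and 2.

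By location, 7 of the 12 peaks were in introns, 4 within 500 bp of a protein-coding start site and 1 in a 5′ UTR. Over all 2334 peaks the shares were 32.9% in introns, 52.1% at starts and 0.771% in 5′ UTRs. Of the 4 at starts, 3 were at those of other genes: cbt, CG10602 and Smg5. Candidates of any strength were within 500 bp of 13 of the 25 start sites of the 10 genes, and a peak that passed was at 1. The same shares over all annotated start sites were not computed, so nothing is read from these counts. Both of the strongest ush peaks are narrower than the usual 400 bp, at 363 and 212 bp, and so were 98 of the strongest 100 peaks of the list.

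Short sequence words were searched within 100 bp of each summit on both strands. For GATA factors either AGATAA or the variant TGATAA counted as a match. The word for the GAGA factor, a chromatin-opening protein, was GAGAG with overlapping copies counted. CAGGTA stood for Zelda, the activator of the early embryonic genome, and CAGCTG for the E-box of basic helix-loop-helix proteins. Homeodomain proteins were represented by the word TAATTA and T-box proteins, the family of Doc1, by the word AGGTGT. The word for DREF, a factor of housekeeping promoters, was TATCGATA. The last pattern, bound by Mad, Medea and Schnurri at genes that Dpp silences, was GNCGNC followed after 5 bases of any kind by the letters GTCT. A GATA word was in 4 of the 8 ush peaks and 1 of the 4 others, that of sog. Beside these 5 of 12 stand 26.8% of all IDR peaks and 20.6% of the pooled candidates that did not pass. Within 50 bp of the summit 2 of the 12 held one, and the share of all IDR peaks at that distance was not computed. The GAGAG word was in 4 of the 8 ush peaks and 1 of the other 4, against 25.3% of all IDR peaks and 24.7% of candidates that did not pass.

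In 2 of the ush peaks the GAGAG word was repeated many times. The peak at the second start site had 19 overlapping hits, 18 of them on the minus strand between 66 and 10 bp upstream of the summit, and the intron peak at 510669 had 10. The peak at the second start site is the only one of the 2334 with 19 or more hits, and 6 had 11 or more. Peaks with 10 or more hits were not counted. The DREF word, the T-box word and the Mad, Medea and Schnurri pattern were in none of the 12, and in 3.77%, 5.91% and 0.129% of all IDR peaks. The strongest ush peak and those of dpp and Ance held no searched word. A match in these windows does not show a bound factor, and its absence says only that these letters are not there. The GC content of the same windows had a median of 41.3% at ush, with a range of 30.8 to 53.2%, against 36.8% over all IDR peaks and 43.8% over the other candidates.

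Related genes, on lists drawn up with earlier results of these data known, are given as counts beside the same 27.4%. All 6 genes listed as transducers and nuclear factors had a peak: shn had 6, Med 2, and Mad, brk, Dad and Smox 1 each. The lists of transducers and of receptors also hold genes that are not specific to Dpp, such as Smox and babo. The Smox peak lay at the start of CG17982. Nearest to the Dad peak, in an intron, was the start of Ns1, 7487 bp away. The strongest were at Med (signal 372, 20 bp from the start of Mnat9), Mad (225, 657 bp upstream of a start of Mad) and brk (143, 837 bp upstream of brk). Thus the co-Smad gene Med shares its strongest peak with a neighbour, while the Smad gene Mad and the repressor gene brk do not by nearest start. The location of the other Med peak is not given here. Of 3 ligand genes, gbb (509, at the start of eIF6) and dpp had 1 each and scw none. Among 7 extracellular regulators, cv-2 (128) and sog had 1, and among 5 receptor genes wit (146) and babo (146, at the start of CG33199) had 1. The starts nearest to the cv-2 and wit peaks, both in introns, were those of CG17974 and CG32259.

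GATA factor genes had peaks at 2 of 5, GATAd (83.7) and grn (78.4), both in introns and low in the list. On the list of amnioserosa and dorsal ectoderm genes 5 of 12 had one, led by ush, Ance and tup, and 4 of 6 genes of the JNK cascade of dorsal closure, with msn (152) and puc (112) holding 4 each and kay (103) 2. Of 10 genes listed for the proneural circuit in which pnr acts, only da (80.3, at the start of mRpS7) had one. Blood cell genes had 3 of 12, ush, sn (118) and vkg (111, at the start of SelT), heart genes 2 of 7, Mef2 (562, at the start of Pal1) and H15 (91.3), and genes of the ventral side 2 of 10, cact (237) and sim (133).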

How the data were processed

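ChIP-seq peak lists of 2 biological replicates of 1 group were used as deposited; no contrast was made. Per the notes deposited with the lists, each replicate's candidate list (peaks and background) was derived by the authors from its alignments and 1 control file, the pooled list from all of these alignments, and the IDR list from these 3, all on dm6. Aligner, peak caller, IDR threshold and read number: not given in the sources used here. The deposited signal (column 7 of the narrowPeak format) was ranked within each list. Summits, the deposited offset added to the region's start, are given 1-based. The dm3 lists were not used, since no dm3 annotation was used here.

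Genes came from Ensembl release 115 (BDGP6.54) and sequence from the RefSeq Release 6 assembly; both hold dm6 coordinates, and every peak and gene ended within the assembly's chromosomes. A summit counted for each gene whose body plus 2 kb held it. Location classes, in order, were promoter (500 bp around a protein-coding start site), 5′ then 3′ UTR, exon with coding sequence, intron, non-coding gene and intergenic. Replicate summits within 200 bp were matched to a pooled summit, the strongest where there were several. Counting, classing and word search (Python 3.11.15, pandas 2.3.3) were tested on simulated data. The members, lists and words were chosen with earlier results of these data known. The rule for named genes gave all 10 members, genes sharing their summits, up to 3 genes per related list, genes with the most summits, and the genes of the peaks ranked next to the strongest ush peak; the remaining related genes with peaks and the last 3 of the 4 ush sequences were chosen after their values were seen. No test was run. Alternatives were stronger IDR peaks only, each replicate's strongest 2334 alone, windows of 0, 1 and 5 kb, nearest start site, region midpoints, merged summits, promoters of 200 bp or 1 kb and other word windows.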

Additional observations from a re-analysis of the deposited data

How the results depend on the processing

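The 8 summits at ush ranged from 6 (stronger IDR peaks only, or nearest start site) to 10 (replicate 3 alone) over all alternatives. Its strongest peak ranked 1 or 2 with 1 replicate left out. With the gene body alone or with 1 kb, genes with a peak went down to 3, summits at the other 9 genes to 2 and summits of the group at promoters to 2, since the Ance and tup peaks then fell outside. Leaving out 1 replicate gave 5 to 7 summits at the other 9 genes, the higher number without replicate 3 from additional tup and sog regions. A pair of these sog regions overlapped at the site of the sog IDR peak, so that site was counted more than once. By nearest start site 1 promoter summit was left, the others going to neighbouring genes. Within 50 bp of the summit 2 peaks held a GATA word. The other alternatives moved no count by more than 1.5 times. No paired analysis was possible because there is a single group and no comparison between groups.

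With 2 samples and no read numbers, no error beyond the 2 replicates' own values can be given, and regions near the IDR threshold, such as the sog peak, are placed differently by each replicate. Enrichment near a gene does not show that it is regulated, and peaks in nested or adjoining genes cannot be assigned by position. Embryos of all stages and tissues were mixed, so no peak can be placed in dorsal ectoderm.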
